A study of Homo sapiens with 6 samples.

Results

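Transcript levels of 10 genes of retinoic acid metabolism and signalling were read in SCC90 cells. The genes were STRA6, CRABP2, DHRS3, ALDH1A3, CYP26A1, CYP26B1, RARA, RARB, RARG and RXRA. They are the rows of the deposited gene table whose Ensembl identifiers carry these symbols, 10 of 40488 genes, and were chosen by name. SCC90 is an established line from an HPV16-positive carcinoma of the base of the tongue. All 6 libraries came from this line, with no added retinoid in the labels, grown with 10% fetal calf serum. The groups were siCTRL, 3 libraries from cells given a scrambled siRNA, and siDNp63, 3 libraries from cells given an siRNA against ΔNp63, the p63 isoform without the N-terminal transactivation domain. RNA was taken 72 h after transfection, and the siRNA concentration is 10 nM in the labels, while the paper's methods give another value. As a model, the groups are limited to 1 cell line and 1 siRNA sequence pair, and neither source says that the 3 replicates were separate cultures, so that the p-values reflect variation among these 6 libraries that could be technical.

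Retinol enters some cells through STRA6, is oxidised to retinal and then, by the ALDH1A enzymes, to all-trans retinoic acid. DHRS3 works in the opposite direction and reduces retinal back to retinol, and the cytochromes P450 of the CYP26 family hydroxylate retinoic acid for disposal. CRABP2 carries retinoic acid to the nucleus, where the receptors RARA, RARB and RARG bind DNA together with a retinoid X receptor such as RXRA. In stratified epithelia retinoic acid is known to favour mucosal over cornified differentiation, and CYP26A1, RARB, CRABP2 and DHRS3 are textbook targets that it induces itself.

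The promoters of CYP26A1 and RARB are shown because they are the 2 of the 10 genes whose RefSeq promoter window (250 bases before to 50 after an annotated start, GRCh38.p14) held a direct repeat of the retinoid receptor motif. The search covered both strands for a 6-base motif (any base followed by GGTCA or GTTCA) repeated after 1, 2 or 5 bases, named DR1, DR2 and DR5. Of the 23 windows listed for the 10 genes, 2 held a repeat, in both cases a DR5. Among all 35116 windows of the table, 0.174% held a DR5, 0.245% a DR1 and 0.159% a DR2. None of the 141 windows of 96 other genes of the pathway lists described below held any of the 3. A match describes letters in this window and was not tested for binding, and other windows or weaker motifs were not searched. The 2 repeats, read 5′ to 3′ on the strand that carries the motif with both copies in capitals, were nearly alike.
CYP26A1: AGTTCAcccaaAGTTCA
RARB: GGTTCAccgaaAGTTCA

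The CYP26A1 repeat lies on chromosome 10 at 93073803 to 93073819, on the strand opposite to the gene and 90 to 74 bases before the RefSeq start used here. In the GENCODE annotation it falls in a non-coding part of an exon of 1 of 6 CYP26A1 transcripts and upstream of the others. Its window, chr10:93073643-93073942 on the plus strand, is printed below with the repeat in capitals.
CYP26A1 promoter: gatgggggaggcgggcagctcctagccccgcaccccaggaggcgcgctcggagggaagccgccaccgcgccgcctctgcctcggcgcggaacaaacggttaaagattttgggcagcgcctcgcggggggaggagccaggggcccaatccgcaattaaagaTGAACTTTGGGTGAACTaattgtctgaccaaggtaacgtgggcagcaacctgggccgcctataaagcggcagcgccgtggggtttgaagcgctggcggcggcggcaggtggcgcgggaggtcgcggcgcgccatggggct

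The RARB repeat lies on chromosome 3 at 25428210 to 25428226, on the strand of the gene and 53 to 37 bases before an internal start. It is spanned by 11 of 23 annotated RARB transcripts, is exonic in 3 of them and coding in 0. Its window is chr3:25428013-25428312 on the plus strand.
RARB promoter: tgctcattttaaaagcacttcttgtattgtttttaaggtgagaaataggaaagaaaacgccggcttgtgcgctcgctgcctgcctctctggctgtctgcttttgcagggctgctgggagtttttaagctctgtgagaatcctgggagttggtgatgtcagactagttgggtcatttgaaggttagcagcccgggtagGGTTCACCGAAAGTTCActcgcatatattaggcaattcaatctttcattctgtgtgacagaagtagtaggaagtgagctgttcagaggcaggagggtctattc

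The libraries held 35716277 to 52598831 expected counts. TP63, the silenced gene, was at 42319, 44204 and 43700 normalized counts (counts divided by library factors that edgeR's TMM method sets) in siCTRL and at 15520, 14474 and 15414 in siDNp63 (log2 fold change −1.52, SE 0.04, adjusted p = 7.59e-07, edgeR). Replicate 1 of siDNp63 was the outermost library on the second axis of a principal component analysis, at −39.1, with the other libraries of its group at 25.6 and 24.8. All 8 squamous epithelial markers were detected in every library, with a summed level of 1743 to 2086 TPM, although KRT14 stayed at 0.374 to 1.59 TPM and KRT5 at 4.12 to 8.24 TPM. The summed level of 5 endothelial markers was 2.56 to 3.06 TPM in siCTRL and 11.2 to 13.7 TPM in siDNp63, carried by KDR and PECAM1, while the defining marker CDH5 had at most 0.112 TPM. Its part in the results was not tested. Sums over 7 leukocyte and 6 fibroblast markers were 14.5 to 15.96 and 7.47 to 9.54 TPM in siCTRL and 11.7 to 12.6 and 4.62 to 8.11 TPM in siDNp63. All libraries came from 1 carcinoma line, so these sums are low transcript levels in its cultures and not counts of other cell types. Bulk RNA does not show which cells of the line held these transcripts.

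RARG was the most abundant of the 10 genes in siCTRL, at 52.9 ± 3.74 TPM (SD, n = 3; TPM is a level per transcript length, so that genes can be set side by side). DHRS3 (21.1 ± 0.839) and RXRA (20.3 ± 1.16) followed with overlapping ranges. CYP26A1 (12.7 ± 1.90), CRABP2 (12.2 ± 2.25) and RARA (10.0 ± 0.698) came next, and each overlapped its neighbour in this order. RARB (3.28 ± 0.277), ALDH1A3 (2.80 ± 0.0864), CYP26B1 (0.338 ± 0.0862) and STRA6 (0.142 ± 0.0503) lay below, with no overlap between neighbours. In siDNp63, CYP26A1 had moved from the fourth to the second place at 52.2 ± 4.18 TPM, where its range overlapped that of RARG (52.5 ± 2.172). DHRS3 was at 13.4 ± 0.396 TPM in siDNp63, overlapping CRABP2 (14.3 ± 1.64), which in turn overlapped RXRA (15.6 ± 2.85), so the order of these 3 genes was not resolved.

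**Figure D1:**
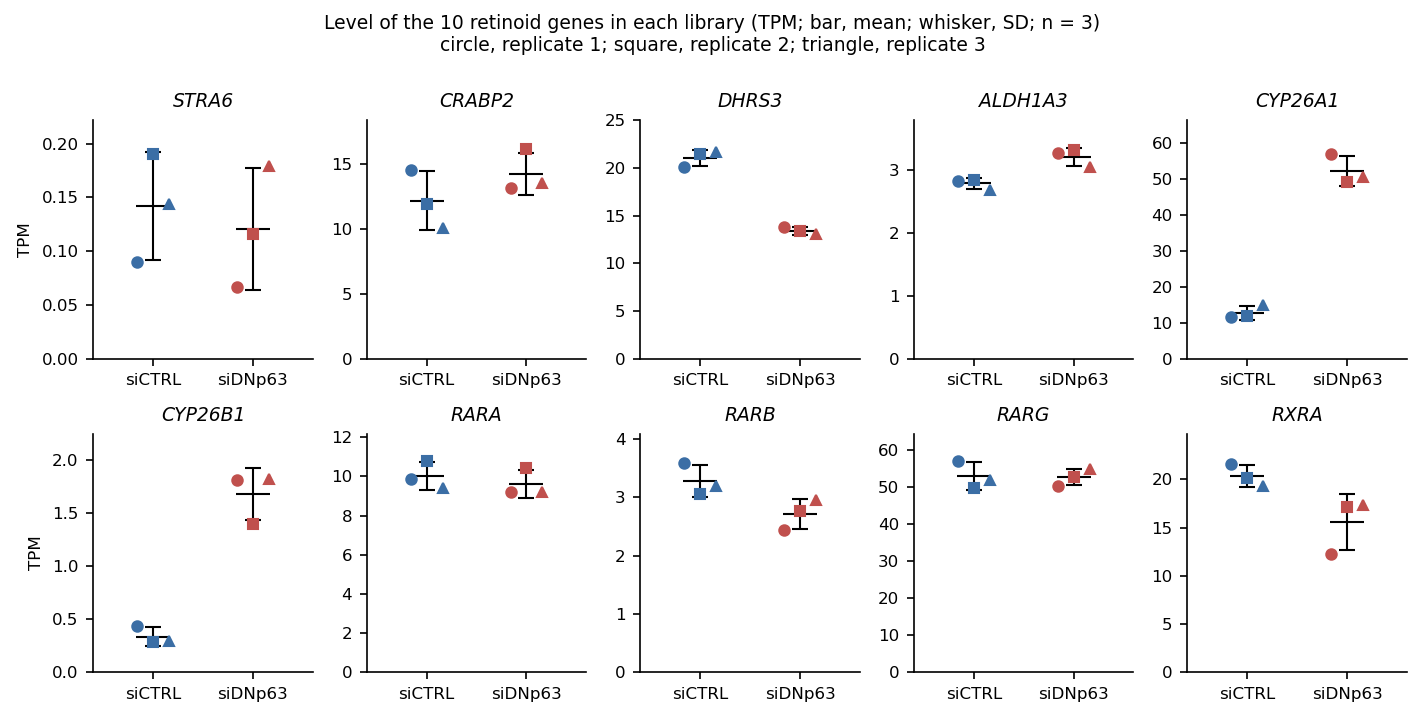
Level in TPM (vertical axes, linear and starting at 0, a separate scale for each gene) of the 10 retinoid genes in the 3 siCTRL (blue) and 3 siDNp63 (red) libraries, with the mean as a bar and the SD as whiskers. CYP26A1 and CYP26B1 lie far above their siCTRL values in every siDNp63 library, DHRS3 lies below, and RARA and RARG overlap between the groups.

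Both retinoic acid hydroxylases rose after ΔNp63 silencing, in normalized counts by nearly the same factor, from very different levels. CYP26A1 (ENSG00000095596; chromosome 10, 93073475 to 93077885) had 295, 313 and 327 normalized counts in siCTRL replicates 1, 2 and 3, and 1565, 1435 and 1382 in siDNp63 replicates 1, 2 and 3. The lowest siDNp63 library was far above the highest siCTRL library. Its level was 4.69-fold higher in siDNp63 (log2 fold change 2.23 with an SE of 0.075). Its adjusted p was 1.70e-06 in the quasi-likelihood test of edgeR, Benjamini-Hochberg adjusted over the 17257 genes tested. CYP26B1 (ENSG00000003137; chromosome 2, 72129238 to 72147862), which hydroxylates the same substrate, had 44.3, 31.2 and 34.9 normalized counts in siCTRL and 204, 152 and 172 in siDNp63. The groups again did not overlap, and the level was 4.72-fold higher (log2 fold change 2.24, SE 0.19, adjusted p = 9.08e-05, edgeR). Once transcript lengths were taken into account, the log2 fold changes were 2.10 for CYP26A1 and 2.36 for CYP26B1. Ordered from the highest log2 fold change of all genes tested, CYP26B1 took place 51 and CYP26A1 place 56. On the TPM scale CYP26A1 remained the main enzyme of the pair, with 97.4% ± 0.90 of their summed TPM in siCTRL and 96.9% ± 0.36 in siDNp63 (SD, n = 3), with overlapping groups (two-sided exact permutation test, p = 0.5, adjusted p = 0.667 over 4 shares tested, in a design whose smallest possible p is 0.1). The third member of the family, CYP26C1, had at most 0.052 TPM and 6 expected counts in a library. The DR5 shown above was in 1 of the 2 windows listed for CYP26A1, and none of the 3 repeats was in the single window listed for CYP26B1. An annotated gene on the same strand, not in the table, shares 750 exon bases with CYP26A1, and reads from those bases cannot be told apart.

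DHRS3, which lowers the supply of retinal, was the member that fell. DHRS3 (ENSG00000162496; chromosome 1, 12567910 to 12618210) had 1047, 1124 and 1108 normalized counts in siCTRL and 733, 764 and 730 in siDNp63. Every siDNp63 library lay below every siCTRL library, by 1.47-fold on average (log2 fold change −0.56, SE 0.06, adjusted p = 2.44e-04, edgeR). ALDH1A3 (ENSG00000184254; chromosome 15, 100877714 to 100916626), which makes retinoic acid from retinal, had 237, 252 and 240 normalized counts in siCTRL and 302, 289 and 276 in siDNp63. The groups did not overlap, but the log2 fold change of 0.25 (SE 0.09) missed the threshold of 0.05 (edgeR adjusted p = 0.0671), and it did so in all 16 alternative fits (adjusted p 0.0609 to 0.306).

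The carrier and the uptake receptor gave no call. CRABP2 (ENSG00000143320; chromosome 1, 156699606 to 156705816) had 203, 199 and 154 normalized counts in siCTRL and 174, 231 and 223 in siDNp63, overlapping groups with a log2 fold change of 0.18 (SE 0.16, adjusted p = 0.43, edgeR). STRA6 (ENSG00000137868; chromosome 15, 74179466 to 74212267) had 6, 9 and 7 expected counts in siCTRL and 3, 8 and 9 in siDNp63. These values lay under the minimum for testing, so that STRA6 is the 1 gene of the 10 without a test. Another gene of the table has values identical to those of STRA6. Whether reads were divided between them was not tested, so the level of STRA6 could be understated.

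The retinoic acid receptors did not pass the test. RARG (ENSG00000172819; chromosome 12, 53210567 to 53232980), the receptor that predominates in keratinocytes, had 2622, 2732 and 2724 normalized counts in siCTRL and 2416, 2970 and 2897 in siDNp63. Replicate 1 of siDNp63 was below and its replicates 2 and 3 were above all siCTRL libraries (log2 fold change 0.04, SE 0.08, adjusted p = 0.734, edgeR). Without siDNp63 replicate 1, RARG passed the threshold as higher, with a log2 fold change of 0.13 (edgeR adjusted p = 0.0207). RARA (ENSG00000131759; chromosome 17, 40309180 to 40357643), the receptor found in most tissues, had 274, 295 and 261 normalized counts in siCTRL and 253, 312 and 260 in siDNp63 (log2 fold change −0.01, SE 0.11, adjusted p = 0.974, edgeR). RARB (ENSG00000077092; chromosome 3, 24687887 to 25597932), which carries a DR5 like that of CYP26A1, had 188, 176 and 183 normalized counts in siCTRL and 138, 167 and 172 in siDNp63. All 3 siDNp63 values of RARB were below those of siCTRL, and the log2 fold change of −0.19 (SE 0.12) did not pass the test (edgeR adjusted p = 0.266).

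RXRA (ENSG00000186350; chromosome 9, 134317098 to 134440585), the shared partner of these receptors, had 3284, 3076 and 2979 normalized counts in siCTRL and 1986, 2807 and 2743 in siDNp63. The siDNp63 libraries lay below those of siCTRL, with replicate 1 much lower than the others (log2 fold change −0.31, SE 0.12, adjusted p = 0.0881, edgeR). Leaving out that replicate brought the log2 fold change to −0.17 and the edgeR adjusted p to 0.0249, so the size of the RXRA difference and its edgeR call both changed with 1 library. With all 6 libraries, RXRA passed the threshold with DESeq2 (−0.30, adjusted p = 0.0333) and with edgeR scaled by library size alone (−0.39, adjusted p = 0.0468). Its call therefore depended on the method and scaling as well.

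Of the 9 genes tested, 2 rose (CYP26A1 and CYP26B1), 1 fell (DHRS3) and 6 did not pass an edgeR adjusted p of 0.05, while of all 17257 genes tested 33.6% passed it, 18.4% as higher and 15.2% as lower. The 3 calls are therefore close to the background share. Both genes that rose also had a log2 fold change over 1, which 2.35% of all genes reached as higher and 1.71% as lower (below −1). In 6 of the 9 genes the groups kept apart without overlap, against 49.4% of all genes. The median log2 fold change was 0.04 for the 9 genes and −0.02 for all genes. The calls of CYP26A1, CYP26B1 and DHRS3 and their directions held in all 16 alternative fits, with log2 fold changes of 1.96 to 2.27, 1.00 to 2.39 and −0.65 to −0.54.

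**Figure D2:**
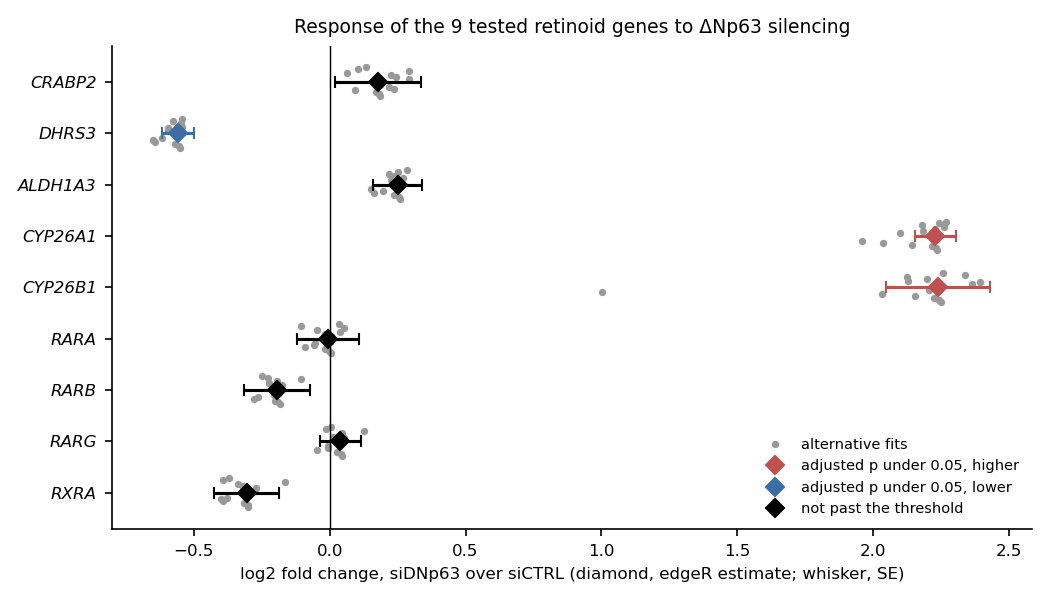
Log2 fold change (horizontal axis, siDNp63 over siCTRL) of the 9 tested retinoid genes, with the edgeR estimate as a diamond, its SE as whiskers and the 16 alternative fits as grey dots. CYP26A1 and CYP26B1 sit near 2.23 and DHRS3 at −0.56, while the other 6 genes lie between −0.31 and 0.25; the CYP26B1 dot at 1.00 is the fit on log2(TPM + 1), which compresses low levels.

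The shares of the 3 retinoic acid receptors in their summed TPM were compared by exact permutation tests that cannot give a p under 0.1 with 3 against 3 libraries. RARG made up 79.9% ± 1.43 of the summed TPM of RARA, RARB and RARG in siCTRL and 81.0% ± 0.94 in siDNp63 (SD, n = 3; two-sided exact permutation test, p = 0.4, adjusted p = 0.667). RARA made up 15.2% ± 1.56 and 14.8% ± 1.02 (exact p = 0.8, adjusted p = 0.8). RARB made up 5.10, 4.82 and 4.95% in siCTRL and 3.93, 4.20 and 4.41% in siDNp63, groups that did not overlap, at that smallest p (exact permutation p = 0.1, adjusted p = 0.4 over 4 shares).

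The sums of related enzymes and receptors, taken after their values had been seen and given here as a description, showed which genes set each family's level. ALDH1A1, ALDH1A2 and ALDH1A3, the 3 enzymes that oxidise retinal to retinoic acid, summed to 31.3 ± 0.923 TPM in siCTRL and 61.3 ± 3.05 TPM in siDNp63. ALDH1A2 held 71.5% of that sum in siCTRL and 71.1% in siDNp63, so ALDH1A3 was a minor form in these cells, and its share was 8.93% ± 0.14 in siCTRL and 5.25% ± 0.14 in siDNp63. The sum of CYP26A1 and CYP26B1 was 13.1 ± 1.86 TPM in siCTRL and 53.9 ± 4.33 TPM in siDNp63. The sum of RXRA, RXRB and RXRG was 21.4 ± 1.06 TPM in siCTRL and 17.8 ± 2.76 TPM in siDNp63, and the share of RXRG in it was 0.71% ± 0.18 in siCTRL and 8.23% ± 1.37 in siDNp63. RXRB had only 15 to 29 expected counts per library. Whether other rows took reads of RXRB was not tested, so this sum and these shares hold for the rows as deposited.

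**Figure D3:**
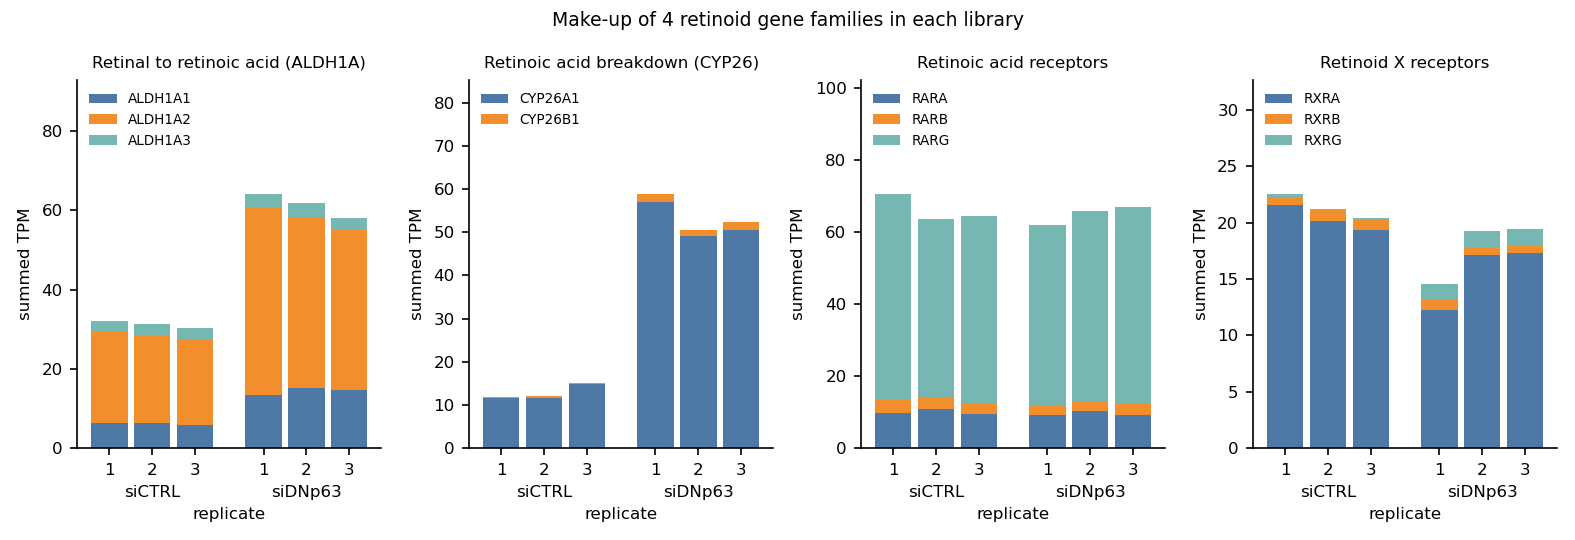
Summed TPM (vertical axes, starting at 0) of 4 retinoid gene families in each library, stacked by gene, with siCTRL replicates on the left and siDNp63 replicates on the right of each panel. The ALDH1A and CYP26 bars are higher in all 3 siDNp63 libraries, the receptor bars of RARA, RARB and RARG overlap between the groups, and the retinoid X receptor bar of siDNp63 replicate 1 is the lowest of its panel.

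Among the other genes of retinoic acid synthesis and breakdown, ALDH1A1 and ALDH1A2 rose and the cytochromes P450 CYP2S1 and CYP1A1 fell. Of 8 tested genes of retinoic acid synthesis and breakdown other than the 10, 2 rose and 2 fell by the edgeR threshold of 0.05, against 18.4% higher and 15.2% lower among all genes tested. ALDH1A1 had 283, 276 and 250 normalized counts in siCTRL and 671, 719 and 704 in siDNp63, a log2 fold change of 1.37 (SE 0.08, adjusted p = 1.42e-05, edgeR). ALDH1A2 rose as well, with 1763 ± 57.8 normalized counts in siCTRL and 3663 ± 275 in siDNp63 (log2 fold change 1.05, edgeR adjusted p = 1.19e-05). CYP2S1, an epithelial P450 that can also metabolise retinoic acid, fell from 1900 ± 13.9 to 597 ± 80.2 (log2 fold change −1.66, edgeR adjusted p = 1.07e-05). CYP1A1, a P450 of the aryl hydrocarbon receptor pathway, fell too (−0.62).

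Of 18 tested oxidoreductases that convert retinol and retinal, 5 rose and 5 fell (18.4% and 15.2% of all genes). SDR16C5, a retinol dehydrogenase of epidermis, had 743 ± 62.8 normalized counts in siCTRL and a higher 1728 ± 38.8 in siDNp63 (log2 fold change 1.22, edgeR adjusted p = 1.15e-05). DHRS9, a retinol dehydrogenase of epithelia, rose from 4.39 ± 0.870 in siCTRL to 21.6 ± 2.34 in siDNp63 (2.27, edgeR adjusted p = 0.00135), a low level with 4 to 5 expected counts per siCTRL library. AKR1C3, which reduces retinal among other substrates and has close copies that can share its reads, was at 1.53, and ADH7, an alcohol dehydrogenase of upper digestive epithelium, at 0.77, both called higher. ADH5 (−0.29) was called lower. ADH1A (−1.53), which has near-identical relatives, and RDH12 (−1.28) were called lower at 3 to 14 and 7 to 32 expected counts per library, and they were called in 4 of 13 and 8 of 15 alternative fits that gave an adjusted p. The count of lower oxidoreductases was 1 to 3 without siCTRL replicate 1, 2 or 3 or siDNp63 replicate 2 or 3. It was 1 with the replicate block, 2 with DESeq2 and 3 with at least 10 counts required in every library. Of 11 tested genes of retinol uptake, binding and storage, 2 fell (15.2% of all genes). FABP5, a fatty acid carrier that can also bind retinoic acid, was at −0.26, and LRAT, which esterifies retinol for storage, at −0.43, a call made in 10 of 16 alternative fits and lost without siCTRL replicate 1 or 3 or siDNp63 replicate 2 or 3. LRP1, a receptor for lipoprotein remnants, had a log2 fold change of −0.28 that did not pass the test (edgeR adjusted p = 0.107) and did with DESeq2 (−0.28), with the replicate block (−0.30) and without siDNp63 replicate 3 (−0.41).

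Of 14 other tested nuclear receptors, most of them partners of the retinoid X receptors, 4 rose and 2 fell, where 18.4% of all genes were higher and 15.2% lower. RXRG had 9.54, 5.20 and 4.51 normalized counts in siCTRL and 37.1, 45.4 and 43.9 in siDNp63, a low level with no overlap (log2 fold change 2.66, SE 0.33, adjusted p = 5.68e-04, edgeR). VDR, the vitamin D receptor, fell from 777 ± 50.5 to 387 ± 19.5 normalized counts (−1.01, edgeR adjusted p = 6.51e-05). RORA (0.60) and NR2F1 (0.57), an orphan receptor known to respond to retinoic acid, were among those that rose. The lower count was 1 without siCTRL replicate 1, 2 or 3 or siDNp63 replicate 3. It was also 1 with limma on log2 TPM at either pseudocount, with the length offset and with the replicate block. Of 20 coregulators of these receptors, 11 rose and 0 fell, with a median log2 fold change of 0.18. Among all genes 18.4% were higher and 15.2% lower, and the median was −0.02. They were NRIP1 (0.90), a ligand-dependent corepressor that retinoic acid induces, the acetyltransferase EP300 (0.47), the coactivators NCOA1 (0.47) and NCOA2 (0.43), and 7 others at 0.17 to 0.57. The lower count of 0 was 1 at an unadjusted p under 0.05, 1 with DESeq2, and 2 with library size alone or without siDNp63 replicate 1. Limma on log2 TPM gave 6 higher coregulators.

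Genes that retinoic acid is known to induce in some tissues moved both ways. Of 25 tested, 11 were called higher and 5 lower with edgeR, with a median log2 fold change of 0.11 (all genes, 18.4% higher, 15.2% lower, median −0.02). The lower count was 2 with limma on log2 TPM at either pseudocount and 3 with the length offset. KRT4, a keratin of mucosal epithelium, was at 2.06, SOX9 at 1.89, GATA6 at 1.56 and FOXA1 at 1.37, the latter 3 being transcription factors of other epithelia, while ICAM1, an adhesion molecule, was at −1.43. Several members of this list, among them KRT4 and TNIP1, had been named in earlier results from these data, so the list is not independent of them. Genes of cornified epidermis that retinoic acid is known to lower were, among the 12 of 20 tested, higher in 9 cases and lower in 0 with edgeR (0 also at an unadjusted p under 0.05 and with DESeq2), with a median log2 fold change of 0.75. IVL, the envelope protein involucrin, was higher at 467 ± 42.8 normalized counts in siDNp63 against 227.5 ± 24.0 in siCTRL (1.04, edgeR adjusted p = 3.27e-04), KRT1 at 209 ± 18.2 against 84.8 ± 8.59 (1.30, edgeR adjusted p = 2.48e-04) and SPRR1B at 283 ± 58.7 against 120 ± 20.9 (1.24, edgeR adjusted p = 0.00185). PI3, the protease inhibitor elafin, was at 1.199, a call that was lost without siCTRL replicate 1 (edgeR adjusted p = 0.0527), and SPRR3, another envelope protein, was at 0.90. KRT10 was at 0.55, a call that ended and changed sign (−0.02) once transcript lengths were taken into account. The 3 tested genes not called were FLG (−0.44), CASP14 (−0.40) and TGM3 (0.77). FLG had a mean of only 0.0812 TPM in siCTRL and 0.0553 in siDNp63, and CASP14 0.358 and 0.210. Another 8 genes of the list had too few counts for a test, among them LORICRIN, at 0.169 TPM in siCTRL and 0.0799 in siDNp63. The paper had reported cornification and skin differentiation among the functions of genes raised in these libraries, so the list of cornified genes is not independent either. Across the whole table too, more genes were higher (18.4%) than lower (15.2%).

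**Figure D4:**
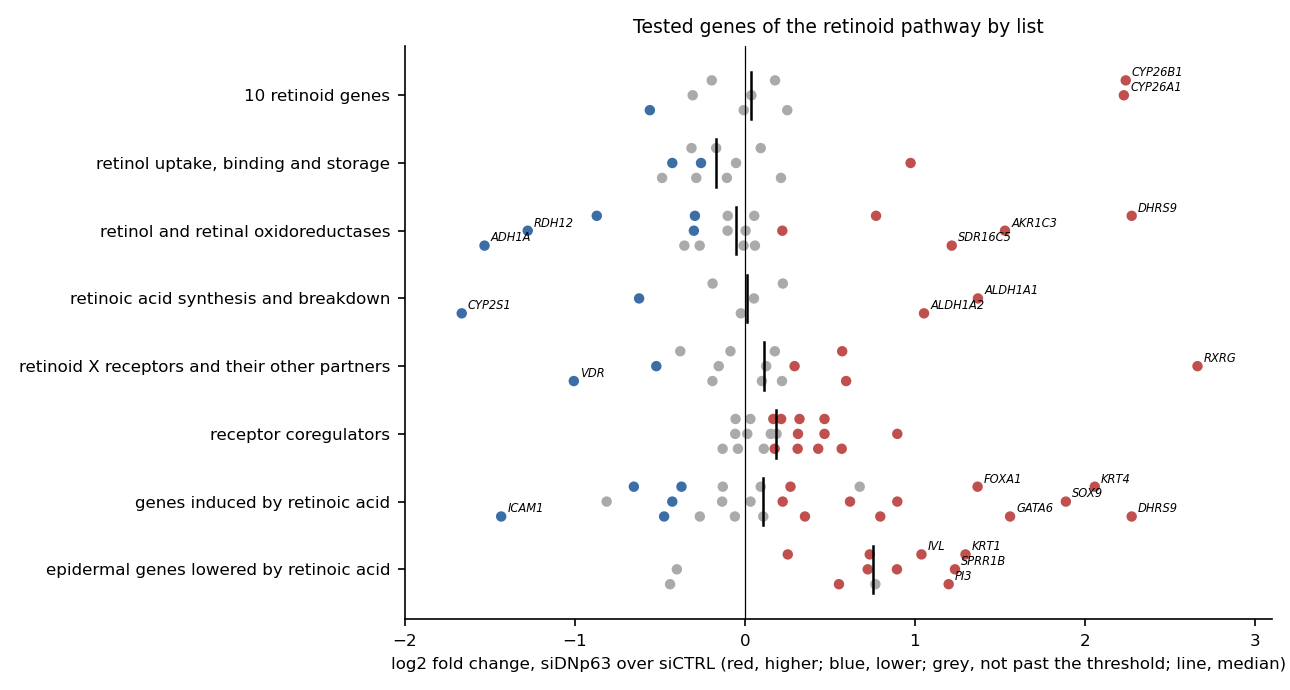
Log2 fold change (horizontal axis, siDNp63 over siCTRL) of every tested gene of the 10 retinoid genes and 7 related lists (rows), red where higher and blue where lower at an edgeR adjusted p under 0.05, grey otherwise, with the list median as a black line and names for genes past an absolute value of 1. The medians run from −0.17 for retinol uptake to 0.75 for epidermal genes, and RXRG at 2.66 is the highest point.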

How the data were processed

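Poly(A) RNA of 6 SCC90 libraries was sequenced from a single end. The authors deposited kallisto output per gene. The estimated counts (expected counts) were deposited by the authors without scaling between libraries, and the TPM of the authors are scaled for transcript length and library. The submitters' processing notes name bcl2fastq 2.17.1.14, kallisto 0.46.2 and the build hg38, with no annotation release in these sources. The methods state default kallisto options, which do not use strand. Reads from exon bases that ALDH1A3 and RARA share with antisense genes, which are not in the table, therefore cannot be told apart.

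Expected counts were rounded, filtered (filterByExpr, minimum count 10, leaving 17257 genes), scaled by TMM and tested with edgeR 4.0.16 (quasi-likelihood, group as the only term), with Benjamini-Hochberg adjustment over all genes tested. The scripts were tested on simulated data. Of 40488 genes, 35538 matched the name table, and coordinates are from GENCODE v44 on GRCh38. Values identical to those of another gene were found for 2425 genes. Among them were STRA6, DHRS4 (counted with the lower oxidoreductases) and GPS2 (counted with the higher coregulators). The members and lists were chosen with earlier results of these data known. Named were the 10 genes, TP63 and, per list, genes past an adjusted p of 0.05 and an absolute log2 fold change over 1, or up to 4 with the smallest p. Alternatives were DESeq2 1.42.0, limma 3.58.1 (voom, and log2 TPM with pseudocounts of 1 and 0.1), RLE and library size scaling, other filters, a length offset, the replicate number as a block, and each library left out. Protein sequences were not used here. Of the genes the rule names, 1 is not reported here.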

Additional observations from a re-analysis of the deposited data

How the results depend on the processing

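Of 16 alternative fits, each kept the calls and directions of CYP26A1, CYP26B1, DHRS3 and TP63. RXRA, not called with edgeR on all libraries, was called with DESeq2 (log2 fold change −0.30) and with library size alone (−0.39), which made the count of lower retinoid genes 2 in both. Left-out libraries gave 1 to 2 lower retinoid genes, −0.39 to −0.17 for RXRA and −0.015 to 0.126 for RARG, with the calls of both made only without siDNp63 replicate 1. Across all genes, limma on log2(TPM + 1) called 1668 higher genes and limma on log2(TPM + 0.1) 1678, and past a log2 fold change of 1 the former gave 148 higher and 113 lower genes. Library size alone gave 4117 lower genes and shifted the median over the whole table to −0.11 (log2). KRT10 reversed in 3 fits, to −0.073 with both TPM pseudocounts and to −0.021 with the length offset. The cause was not tested.

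The replicate numbers were shared between the groups, and the deviations of same-numbered libraries were hardly correlated (−0.012, 0.017 and 0.027). The labels do not say whether the numbers pair the samples, and correlations over 3 replicates cannot settle it. With the replicate block, 2 retinoid genes were higher and 1 was lower, the same as without it, and CYP26A1 had a log2 fold change of 2.23, CYP26B1 of 2.25 and DHRS3 of −0.56. Under the block the lower oxidoreductases were 1 in place of 5, the lower nuclear receptors 1 in place of 2, LRP1 was called (−0.30), and RDH12 and ADH1A were no longer called.

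STRA6, at 3 to 9 expected counts in a row identical to that of another gene, was below the minimum for the test.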
